A study of Mus musculus with 12 samples.

Results

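The metalloproteinase and TIMP genes of 562 vascular tumor cells were examined across control cells and 3 autophagy-deficient KO cells. They were taken by symbol, as every listed gene whose name starts with Mmp, Adam, Adamts or Adamtsl, and Timp1 to Timp4. This gave 55 of the 14851 genes listed, namely 9 secreted MMPs, 5 membrane-type MMPs, 3 other MMPs, 18 ADAMs, 12 ADAMTS genes, 4 ADAMTSL genes and 4 TIMPs.

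Matrix metalloproteinases (MMPs) are zinc-dependent enzymes that cleave collagens and other matrix proteins, and the membrane-type members do so at the cell surface. ADAMs are membrane-anchored relatives that release the outer domains of growth factors, cytokines and receptors, ADAMTS enzymes are secreted and cut proteoglycans, procollagens or von Willebrand factor, and ADAMTSL proteins resemble them but have no catalytic domain. TIMPs are the secreted inhibitors of these enzymes, and in endothelium the balance of proteases and inhibitors is known for its part in vessel sprouting and in the shedding of adhesion molecules.

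RNA-sequencing was done on 12 libraries, 3 from control cells and 3 from each KO, named Atg5 KO, Atg7 KO and Fip200 KO after the deleted gene. The 562 line arose by spontaneous immortalization of cells from the skin tumors of a tamoxifen-treated Tsc1 f/f;Scl-Cre mouse, so the control cells and all KO cells share the loss of Tsc1, and the strain was labelled C57BL/6. The Scl-Cre transgene acts in endothelial cells once tamoxifen is given. Fip200 (Rb1cc1), Atg5 and Atg7 were deleted by CRISPR-Cas9 from a lentiviral vector with puromycin selection, with 2 guides for Fip200 and 1 each for Atg5 and Atg7. The control cells were labelled wildtype in genotype and, by the methods of the study, carried a guide against EGFP. All 12 libraries come from 1 line, and the labels do not say that replicates were separate cultures, so p-values measure the spread between these libraries.

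Between 17266926 and 23629730 reads per library fell in the listed genes, and the 55 members held 0.265% to 0.574% of them. Levels are given as RPKM, reads scaled by the length of the gene and the size of the library, which allows comparison between genes and between libraries. The cells were labelled lymphatic endothelial. Of 9 endothelial markers, Pecam1, Cdh5 and Emcn were at 116 RPKM or more in every library, and Flt1 was at 0.145 to 34.1 RPKM and called lower in Fip200 KO (not by voom) and Atg7 KO. In Atg5 KO, 3 of the 9 endothelial markers were called higher and 0 lower, against 4.31% and 6.94% of all tested genes. Voom called 1 of the 9 there. Lyve1 and Pdpn, which mark lymphatic vessels, were at 51.5 RPKM or more in every library. Prox1, the defining lymphatic factor, ranged from 0.0366 to 5.79 RPKM. Of 4 lymphatic markers, 1 was called higher in Atg5 KO and 1 in Atg7 KO, against 4.31% and 3.29% of all tested genes. In Atg7 KO voom called 0 of these 4. Of 6 immune markers, Ptprc, Adgre1 and Csf1r stayed at or below 0.179 RPKM everywhere, whereas Cd68, Cd14 and Lyz2 reached up to 263, 73.0 and 26.4 RPKM, and both Cd68 and Cd14 fell in Atg5 KO as well as in Atg7 KO. Rb1cc1 and Atg5 RNA overlapped between KO and control cells, and Atg7 RNA was at 2.64 to 8.34 RPKM in Atg7 KO against 18.4 to 25.0 RPKM in control. Atg7 RNA was also at 9.94 to 11.9 RPKM in Atg5 KO and at 8.23 RPKM in Fip200 KO replicate 3, so RNA levels do not check the labels of the KO cells. In bulk RNA, fewer cells that make a transcript and less of it per cell cannot be told apart.

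A row of 6 secreted MMP genes lies side by side on mouse chromosome 9, in the RefSeq order Mmp13, Mmp12, Mmp1b, Mmp3, Mmp1a and Mmp10. Their promoters are shown because each holds the letters TGAGTCA or TGACTCA, the recognition sequence of AP-1, a factor known to drive many MMP genes. The lines below give 67 bases around it from RefSeq (GRCm38.p6), 5′ to 3′ on the strand of the gene, with those letters in capitals.
Mmp13, chr9:7272449-7272515, plus strand: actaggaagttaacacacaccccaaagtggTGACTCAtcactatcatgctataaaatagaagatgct
Mmp12, chr9:7347300-7347366, plus strand: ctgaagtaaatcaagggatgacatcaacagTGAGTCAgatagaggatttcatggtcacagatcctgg
Mmp1b, chr9:7388083-7388149, minus strand: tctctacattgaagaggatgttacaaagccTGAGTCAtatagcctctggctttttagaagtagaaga
Mmp3, chr9:7445746-7445812, plus strand: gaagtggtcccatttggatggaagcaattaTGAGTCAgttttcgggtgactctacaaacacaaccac
Mmp1a, chr9:7464038-7464104, plus strand: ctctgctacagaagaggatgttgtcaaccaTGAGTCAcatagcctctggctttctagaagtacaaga
Mmp10, chr9:7502249-7502315, plus strand: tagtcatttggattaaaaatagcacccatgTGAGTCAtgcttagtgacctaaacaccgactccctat
The motif began 35 bases before the gene start in Mmp13 and 93 bases before it in Mmp1b, with the other 4 genes in between. TGAGTCA and TGACTCA are the reverse complement of each other, so both strands were searched. A promoter, 250 bases before to 50 bases after the start, was at hand for 35 of the 55 members, and 7 of these 35 genes held the letters, against 5.95% of all 27025 genes with a promoter. Outside the row of 6, only Adam19 among 29 members did. A match of letters is a description and not a binding site.

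These neighbours had unequal RNA levels. Mmp3, stromelysin 1, was the most abundant, at 10.3, 26.5 and 65.6 RPKM in control replicates 1, 2 and 3. Mmp12, macrophage elastase, had at most 7 reads in any library. It had 0 reads in all 3 Atg7 KO libraries, which allows up to 3 reads in each. Mmp1a and Mmp1b, the mouse counterparts of interstitial collagenase, peaked at 1.49 and 1.37 RPKM. They are close copies of each other, and reads could be split between them by the counting.

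Most of the protease and inhibitor RNA came from few genes. The 12 members with the highest mean level made up 87.5% to 92.6% of the summed RPKM of all members in each library. In falling order of mean these were Timp3, Timp2, Adam15, Adam9, Adamts1, Adam10, Mmp14, Timp1, Adamts4, Mmp2, Adam17 and Adamts7. The ranges of neighbours in this order overlapped, whereas Timp3 (mean 142 RPKM over 12 libraries) and Adamts7 (21.9 RPKM) did not overlap in any library. The order differed between groups. By group mean, Adamts1 was 3rd in control (162 RPKM), while Adam15 led in Atg5 KO (111 RPKM against 106 RPKM for Timp3) and Adam9 in Atg7 KO (103 RPKM). At the other end, 17 members were under 0.5 RPKM in every library. Mmp9, gelatinase B, was one of these, with at most 8 reads and 0.123 RPKM, and so was Timp4, with at most 7 reads and 0.229 RPKM.

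**Figure D1:**
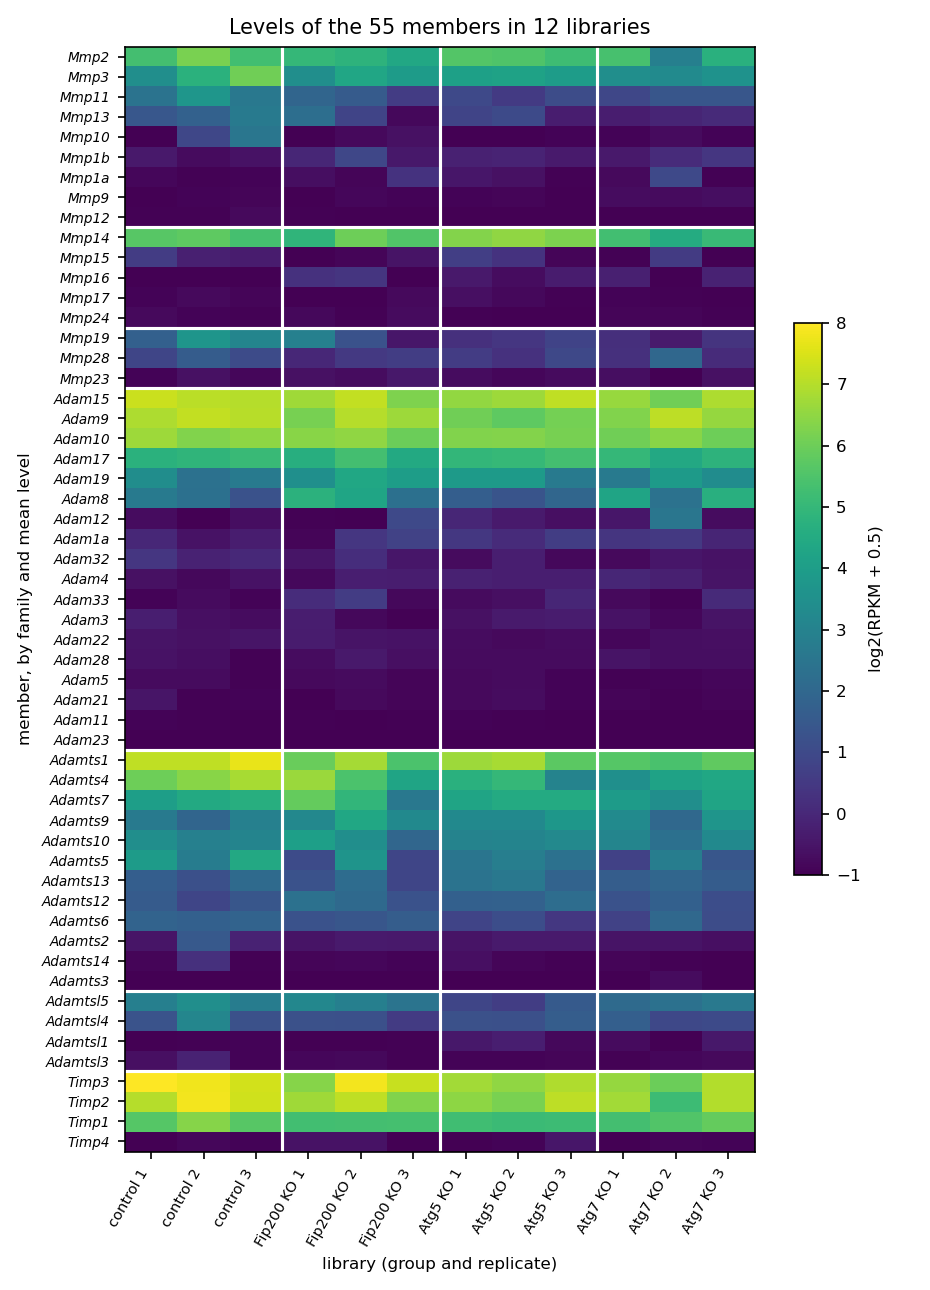
Level of each of the 55 members, as log2 of RPKM plus 0.5, in each of the 12 libraries, with members ordered by family and by mean level. Timp3, Timp2, Adam15, Adam9 and Adamts1 have the highest mean levels, and 17 members were under 0.5 RPKM in every library.

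Each KO was then compared with control to ask how loss of an autophagy gene changes these RNAs. The limma test was applied to log2 of RPKM plus 0.5 for genes that reached 0.5 RPKM in 3 or more of 6 libraries. Calls required an adjusted p no higher than 0.1 and a log2 fold change of -1 or lower, or of 1 or higher. Of the 55 members, 28 passed the filter for Fip200 KO, 29 for Atg5 KO and 27 for Atg7 KO. All 3 comparisons use the same control libraries. The scale understates the change of genes near 0.5 RPKM.

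In Atg5 KO, 9 of the 29 tested members were called lower and 0 higher, against 6.94% and 4.31% of all 11833 tested genes, 11.2% together. In Atg7 KO, 7 of 27 were called lower and 0 higher, against 6.81% and 3.29% of 11784 genes, 10.1% together. In Fip200 KO, limma called 0 of 28 members, against 1.98% of 11803 genes called in either direction, 1.64% lower and 0.347% higher. There, 9 members had an unadjusted p under 0.05, of which 6 were lower and 3 higher, against 16.1% of all genes. Limma voom on the recovered reads also called 0, whereas a fit of all 12 libraries called Adamts1 and Mmp11 lower. The share of all genes called in that fit is given below with the other settings. In Atg5 KO 16 members had an unadjusted p under 0.05, 12 lower and 4 higher, against 43.8% of all genes, and in Atg7 KO 11 members did, 10 lower and 1 higher, against 33.7%. By voom, 1 member (Adam1a) was called higher in Atg5 KO and 0 in Atg7 KO.

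Libraries without overlap were counted as well. All 3 KO libraries lay below all control libraries for 7 tested members in Fip200 KO, against 12.4% of all tested genes, and above them for 2, against 11.7%. In Atg5 KO these counts were 10 below and 4 above, against 22% and 28.4% of genes. In Atg7 KO they were 10 below and 0 above, against 20.4% and 19.2%.

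More members had a fold change below 0 than above it. A log2 fold change under 0 was seen for 22 of 28 members in Fip200 KO, 20 of 29 members in Atg5 KO and 22 of 27 members in Atg7 KO, against 48.8%, 45.9% and 50.6% of all tested genes. The median log2 fold change over tested members was -0.41, -0.53 and -0.60, respectively, where that of all tested genes was 0.02, 0.06 and -0.01. Together 10 of 30 members tested were called lower in at least 1 KO, against 9.27% of all genes tested. In both Atg5 KO and Atg7 KO, which share their control libraries, 6 of 27 were, against 4.55% of genes, namely Mmp11, Mmp13, Mmp19, Adamts4, Adamts5 and Timp3.

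**Figure D2:**
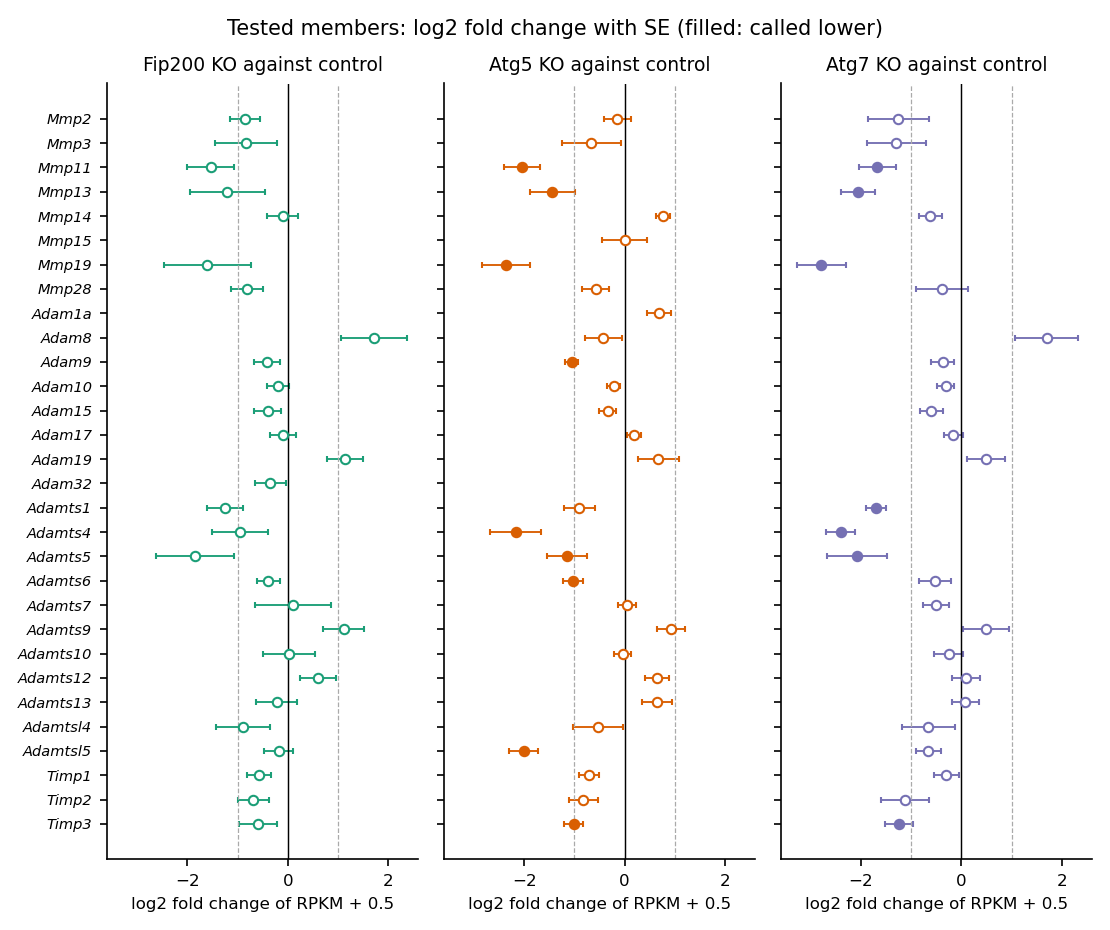
Log2 fold change of RPKM plus 0.5 against control (points) with its SE (bars) for every tested member in each KO, with filled points for members called lower and dashed lines at -1 and 1. Filled points number 0, 9 and 7, and Mmp19 has the lowest value in Atg5 KO (-2.36) and Atg7 KO (-2.79).

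Fewer members were called once the names of the libraries entered the fit. Library names start with FY, JG or Yang, and the sources used here do not say what the letters stand for. No control library shares the letters of the Atg7 KO libraries, so that comparison has no value within 1 set of letters. With the letters as a term in a fit of all 12 libraries, which reaches Atg7 KO only through the Atg5 KO libraries, 4 members were called lower in Atg5 KO (Adam9, Adamtsl5, Mmp11 and Mmp19) and 0 in Atg7 KO, against 5.42% and 0.311% of all genes. Within the libraries named JG, 2 control and 2 Atg5 KO, the 9 members called in Atg5 KO had log2 differences from -0.84 (Adamts6) to -3.07 (Mmp19), with no test. The libraries also differed in markers of other cells. Summed over 8 listed fibroblast or mural markers, levels were 21.7 to 227 RPKM in control, 17.8 to 291 RPKM in Fip200 KO, 114 to 243 RPKM in Atg5 KO and 73.1 to 361 RPKM in Atg7 KO. Summed over 6 immune markers, they were 107 to 134 RPKM in control, 23.4 to 285 RPKM in Fip200 KO, 26.0 to 30.4 RPKM in Atg5 KO and 24.0 to 31.6 RPKM in Atg7 KO, nearly all of it Cd68, Cd14 and Lyz2. Summed over 9 endothelial markers, they were 1149 to 2905 RPKM in control and 2040 to 3115 RPKM in KO cells, lowest in control replicate 2. Within the fibroblast or mural list, that library held the highest Pdgfra, Pdgfrb, Dcn, Fap and Col3a1 (9.02, 4.19, 56.9, 2.05 and 143 RPKM) but the lowest Acta2 (0.444 RPKM), and its Thy1 was 11.2 RPKM where KO libraries reached up to 346 RPKM. Thy1 made up most of the highest fibroblast or mural sum in each KO. It was at 288 RPKM in Fip200 KO replicate 1, 207 RPKM in Atg5 KO replicate 3 and 346 RPKM in Atg7 KO replicate 1. Of this list, 2 of 4 tested were called higher in Atg5 KO and 1 of 3 in Atg7 KO. These compare with 4.31% and 3.29% of all tested genes, and 0 were called lower. The part of all these markers in the results was not tested. Without control replicate 2, 7 members were called in Atg5 KO and 6 in Atg7 KO, against 8.49% and 6.33% of all genes.

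Among the secreted MMPs, 4 of 9 were tested in each comparison, and Mmp11 and Mmp13 were lower in both Atg5 KO and Atg7 KO. Mmp11 encodes stromelysin 3, which is activated by furin inside the cell. It was at 4.84, 12.6 and 5.54 RPKM in control, 3.35, 2.47 and 1.01 RPKM in Fip200 KO, 1.47, 0.930 and 1.64 RPKM in Atg5 KO, and 1.37, 2.14 and 2.15 RPKM in Atg7 KO. Every KO library lay below every control library. The log2 fold change was -2.04 (SE 0.36, limma adjusted p = 0.0102) in Atg5 KO, -1.67 (SE 0.36, limma adjusted p = 0.0299) in Atg7 KO and -1.54 (SE 0.47, limma adjusted p = 0.191) in Fip200 KO. In Atg7 KO the adjusted p was 0.102 without Atg7 KO replicate 1. In Fip200 KO, Mmp11 was called lower in a fit of all 12 libraries.

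Mmp13, collagenase 3, was at 2.19, 2.97 and 5.90 RPKM in control, 4.24, 1.32 and 0.0682 RPKM in Fip200 KO, 1.32, 1.51 and 0.329 RPKM in Atg5 KO, and 0.325, 0.451 and 0.550 RPKM in Atg7 KO. The Atg5 KO and Atg7 KO libraries were all below control, whereas Fip200 KO overlapped control. Its log2 fold change was -1.44 (SE 0.44, limma adjusted p = 0.0492) in Atg5 KO and -2.06 (SE 0.34, limma adjusted p = 0.0169) in Atg7 KO. In Atg5 KO the call was lost without control replicate 3 (adjusted p = 0.132) or without Atg5 KO replicate 3 (adjusted p = 0.101). In Fip200 KO it was -1.20 (SE 0.74, limma adjusted p = 0.450), with replicate 3 the lowest at 0.0682 RPKM. Within the libraries named FY, the log2 difference of Mmp13 in Fip200 KO was -0.66, with no test.

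Mmp2 and Mmp3 were not called in any KO. Mmp2, gelatinase A, was at 39.1, 72.8 and 38.0 RPKM in control, 31.0, 27.9 and 20.8 RPKM in Fip200 KO, 47.6, 45.8 and 36.7 RPKM in Atg5 KO, and 41.7, 6.94 and 25.7 RPKM in Atg7 KO. Fip200 KO alone lay wholly below control (log2 fold change -0.85, SE 0.30, limma adjusted p = 0.243). Mmp3 spread more widely in control than in any KO, at 34.1 ± 28.4 RPKM (SD, n = 3) against 15.0 ± 4.60 RPKM in Fip200 KO, 16.5 ± 1.38 RPKM in Atg5 KO and 10.5 ± 1.01 RPKM in Atg7 KO. Its log2 fold changes of -0.84, -0.66 and -1.29 had limma adjusted p of 0.518, 0.416 and 0.164, and with the library-name letters as a term the value in Fip200 KO was 0.47. Without control replicate 1, however, Mmp3 was called lower in both Atg5 KO and Atg7 KO.

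Mmp10, stromelysin 2, passed no filter but differed in its reads. It had 0, 57 and 182 reads in the control libraries, 0, 3 and 6 reads in Fip200 KO, 0, 0 and 1 reads in Atg5 KO, and 1, 3 and 1 reads in Atg7 KO. Since control replicate 1 also had 0 reads, control and KO libraries overlapped.

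Mmp19, an MMP outside the main groups that cleaves basement membrane proteins, had the lowest log2 fold change of all members in Atg5 KO and Atg7 KO. It was at 2.87, 12.6 and 8.11 RPKM in control, 7.14, 1.92 and 0.237 RPKM in Fip200 KO, 0.687, 0.854 and 1.25 RPKM in Atg5 KO, and 0.651, 0.285 and 0.777 RPKM in Atg7 KO. Every Atg5 KO and Atg7 KO library was below every control library, while Fip200 KO overlapped control. In Atg5 KO the log2 fold change was -2.36 (SE 0.48, limma adjusted p = 0.0146), against -2.79 (SE 0.49, limma adjusted p = 0.0193) in Atg7 KO. In Fip200 KO it was -1.60 (SE 0.87, limma adjusted p = 0.405). Both calls held without any single library.

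**Figure D3:**
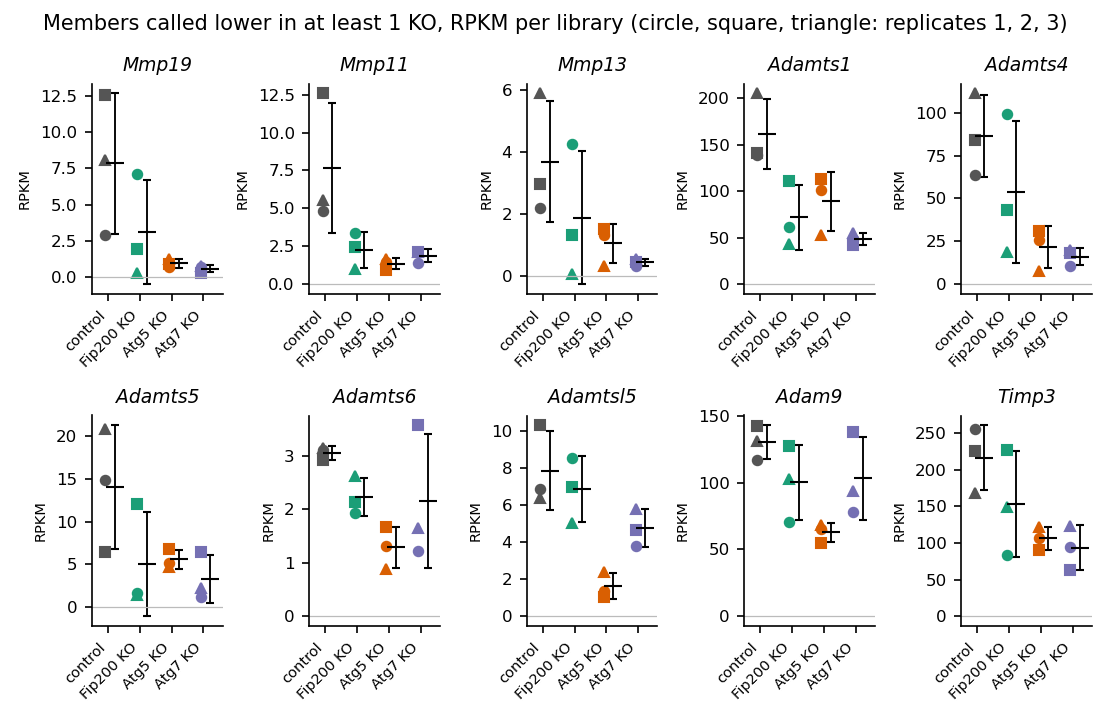
RPKM of the 10 members called lower in at least 1 KO, by group, with a point for each library (circle, square and triangle for replicates 1, 2 and 3) and the mean with its SD beside them. The Atg5 KO points of Mmp19, Mmp11, Mmp13, Adamts1, Adamts4, Adamts6, Adamtsl5, Adam9 and Timp3 all lie below control, and those of Adamts5 overlap it.

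Mmp14 was the main membrane-type MMP, and its levels in Atg5 KO and Atg7 KO lay on opposite sides of control without a call in either. The gene encodes MT1-MMP, which cleaves collagen at the cell surface and activates the Mmp2 product. It was at 50.3, 53.8 and 40.2 RPKM in control, 28.9, 64.1 and 47.0 RPKM in Fip200 KO, 80.5, 89.7 and 74.2 RPKM in Atg5 KO, and 38.7, 22.6 and 33.9 RPKM in Atg7 KO. All Atg5 KO libraries stood above control and all Atg7 KO libraries below it. The log2 fold change was 0.76 (SE 0.14, limma adjusted p = 0.0119) in Atg5 KO, -0.62 (SE 0.23, limma adjusted p = 0.112) in Atg7 KO and -0.11 (SE 0.31, limma adjusted p = 0.889) in Fip200 KO, where it was 0.20 without Fip200 KO replicate 1. The other 4 membrane-type genes, Mmp15, Mmp16, Mmp17 and Mmp24, did not exceed 1.08 RPKM in any library. Mmp16 had 1, 0 and 0 reads in control and 72, 83 and 1 reads in Fip200 KO, with 12 to 33 reads in Atg5 KO and 33, 0 and 44 reads in Atg7 KO.

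The ADAM sheddases with the best-known roles were not called in any KO. Adam10, which sheds cadherins and cleaves Notch receptors, was at 89.0 ± 12.1 RPKM (SD, n = 3) in control, 78.3 ± 14.3 RPKM in Fip200 KO, 76.4 ± 5.27 RPKM in Atg5 KO and 71.8 ± 10.9 RPKM in Atg7 KO. Its highest library was 1.63 times its lowest, the narrowest range of the 30 members tested in at least 1 KO. Adam17, which releases TNF and EGF receptor ligands, was at 29.7 ± 3.39 RPKM (SD, n = 3) in control, 28.5 ± 9.55 RPKM in Fip200 KO, 34.0 ± 4.61 RPKM in Atg5 KO and 26.8 ± 5.19 RPKM in Atg7 KO. Control and KO libraries overlapped for both genes in every comparison, with limma adjusted p from 0.247 to 0.682 for Adam10 and from 0.335 to 0.870 for Adam17.

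Adam9, another surface metalloproteinase with a broad set of substrates, fell in Atg5 KO. It was at 117, 143 and 131 RPKM in control, 70.8, 127 and 103 RPKM in Fip200 KO, 65.2, 54.5 and 68.5 RPKM in Atg5 KO, and 77.9, 138 and 94.0 RPKM in Atg7 KO. Only the Atg5 KO libraries lay wholly below control (log2 fold change -1.05, SE 0.13, limma adjusted p = 0.00483). The change is close to the fold threshold, and it was -0.98 without control replicate 2 and -0.96 without Atg5 KO replicate 2. In Fip200 KO and Atg7 KO it was -0.41 (SE 0.25, limma adjusted p = 0.442) and -0.37 (SE 0.23, limma adjusted p = 0.286).

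Adam15, a metalloproteinase of endothelial and other cells whose disintegrin domain binds integrins, was at 154, 134 and 129 RPKM in control, 106, 144 and 75.4 RPKM in Fip200 KO, 92.2, 103 and 139.5 RPKM in Atg5 KO, and 97.6, 66.4 and 117 RPKM in Atg7 KO. Its Atg7 KO libraries were all below control (log2 fold change -0.60, SE 0.22, limma adjusted p = 0.111), and it was not called. Adam8 and Adam19 had the highest fold changes of all members in Fip200 KO, and neither was called. Adam8, best known from leukocytes, was at 5.82, 4.48 and 1.92 RPKM in control, 26.9, 19.0 and 4.55 RPKM in Fip200 KO, 2.69, 2.02 and 3.44 RPKM in Atg5 KO, and 18.8, 4.70 and 25.3 RPKM in Atg7 KO. In Fip200 KO and in Atg7 KO alike, a lone library stayed within the control range. The log2 fold changes were 1.72 (SE 0.66, limma adjusted p = 0.272) and 1.70 (SE 0.63, limma adjusted p = 0.110). It was called higher in Fip200 KO without Fip200 KO replicate 3 and in Atg7 KO without Atg7 KO replicate 2. Adam19, also known as meltrin beta, was at 4.63 to 10.2 RPKM in control and above that in all Fip200 KO libraries (log2 fold change 1.14, SE 0.35, limma adjusted p = 0.193). It was called higher in Atg5 KO without Atg5 KO replicate 3.

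Adam12 was under 0.5 RPKM in 10 of 12 libraries and reached 1.48 RPKM in Fip200 KO replicate 3 and 5.29 RPKM in Atg7 KO replicate 2. These are also the libraries in which Adam8 was lowest within its own KO, and in which Mmp1a had its highest values, 0.743 and 1.49 RPKM. The pattern was noticed after the values were seen and was not tested. Adam1a passed the filter in Atg5 KO only through the KO libraries, at 0.871, 0.581 and 1.06 RPKM against 0.495, 0.178 and 0.327 RPKM in control, so its log2 fold change of 0.68, which was not called, had to be above 0.

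**Figure D4:**
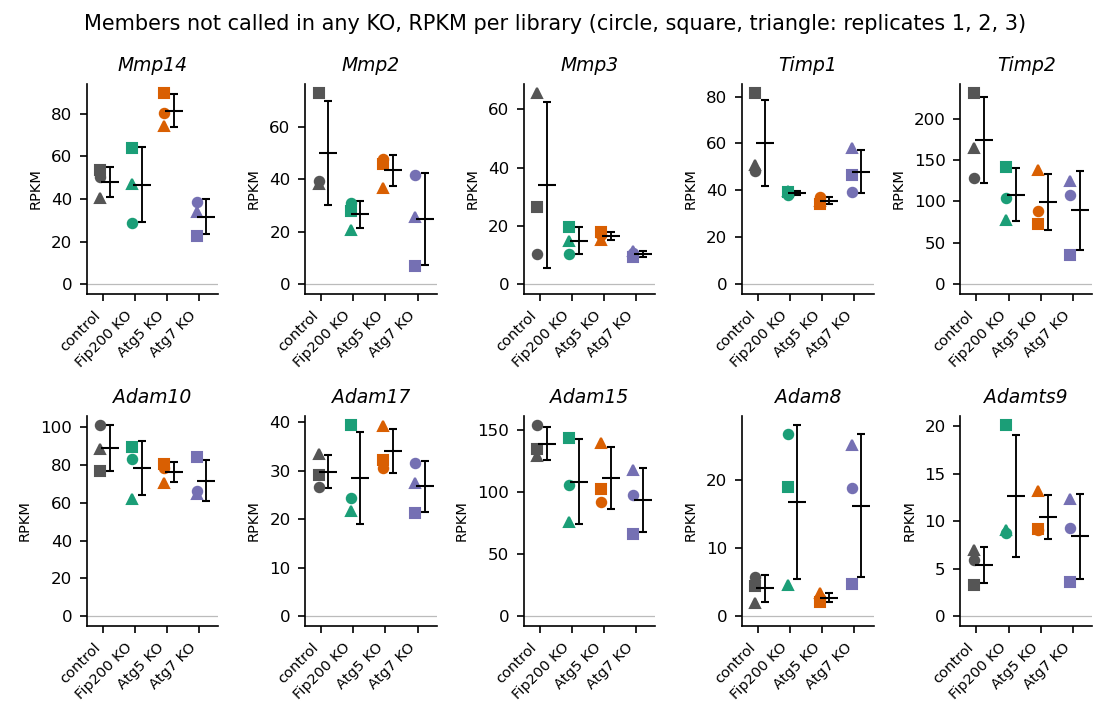
RPKM of 10 members that were not called in any KO, by group, with a point for each library and the mean with its SD beside them. Mmp14 is at 74.2 to 89.7 RPKM in Atg5 KO and 22.6 to 38.7 RPKM in Atg7 KO, on either side of control, while Adam10 and Adam17 overlap control in every KO.

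Among the ADAMTS genes, the family with the most members tested, 3 of 9 were lower in Atg5 KO and 3 of 9 in Atg7 KO. Adamts4 and Adamts5 were called in both. Adamts4, an aggrecanase that also cuts versican, was at 63.9, 83.9 and 112 RPKM in control, 99.4, 43.4 and 18.7 RPKM in Fip200 KO, 25.7, 31.3 and 7.59 RPKM in Atg5 KO, and 10.6, 17.9 and 19.8 RPKM in Atg7 KO. All Atg5 KO and Atg7 KO libraries were below control, and Fip200 KO replicate 1 was within the control range. Its log2 fold change was -2.17 (SE 0.51, limma adjusted p = 0.0226) in Atg5 KO, -2.40 (SE 0.29, limma adjusted p = 0.00888) in Atg7 KO and -0.95 (SE 0.56, limma adjusted p = 0.435) in Fip200 KO. Calls in Atg5 KO and Atg7 KO held without any single library.

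Adamts1, which cleaves versican and aggrecan and is known to restrain vessel growth, was at 139, 141 and 206 RPKM in control, 61.7, 111 and 43.0 RPKM in Fip200 KO, 101, 113 and 53.3 RPKM in Atg5 KO, and 48.7, 42.2 and 55.3 RPKM in Atg7 KO. All 9 KO libraries were below all control libraries. It fell in Atg7 KO (log2 fold change -1.71, SE 0.20, limma adjusted p = 0.00840). In Atg5 KO it passed the adjusted p but not the fold threshold (-0.90, SE 0.30, limma adjusted p = 0.0636), and it was called there without Atg5 KO replicate 2 (-1.11). In Fip200 KO it had the smallest adjusted p of any member (-1.25, SE 0.36, limma adjusted p = 0.174). A fit of all 12 libraries gave the same fold change with an adjusted p of 0.0713.

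Adamts5, the neighbour of Adamts1 on chromosome 16 and also an aggrecanase, was at 14.9, 6.44 and 20.9 RPKM in control, 1.59, 12.03 and 1.35 RPKM in Fip200 KO, 5.18, 6.79 and 4.68 RPKM in Atg5 KO, and 1.16, 6.45 and 2.15 RPKM in Atg7 KO. Control replicate 2 overlapped every KO. Its log2 fold change was -1.14 (SE 0.40, limma adjusted p = 0.0708) in Atg5 KO, -2.07 (SE 0.60, limma adjusted p = 0.0606) in Atg7 KO and -1.85 (SE 0.78, limma adjusted p = 0.302) in Fip200 KO. The call in Atg5 KO was lost on leaving out any library but control replicate 2 (adjusted p from 0.108 to 0.177). That in Atg7 KO was lost without control replicate 1 or 3 or Atg7 KO replicate 1 or 3 (adjusted p from 0.126 to 0.184).

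Adamts6, which is linked to fibrillin microfibrils, was at 3.12, 2.92 and 3.16 RPKM in control, 1.93, 2.13 and 2.64 RPKM in Fip200 KO, 1.31, 1.66 and 0.890 RPKM in Atg5 KO, and 1.23, 3.58 and 1.65 RPKM in Atg7 KO. Fip200 KO and Atg5 KO lay wholly below control. It fell in Atg5 KO by 1.02 on the log2 scale (SE 0.20, limma adjusted p = 0.0134), and by 0.85 without Atg5 KO replicate 3. In Atg7 KO the log2 fold change was -0.53 (SE 0.33, limma adjusted p = 0.295).

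None of the other ADAMTS genes tested was called. Adamts7, which cleaves cartilage oligomeric matrix protein, was at 15.8, 21.4 and 24.4 RPKM in control, 58.6, 30.1 and 5.63 RPKM in Fip200 KO, 18.7, 22.02 and 22.05 RPKM in Atg5 KO, and 14.8, 10.3 and 18.5 RPKM in Atg7 KO. The 3 Fip200 KO libraries lay on both sides of control (log2 fold change 0.11, limma adjusted p = 0.957), and the value was -0.60 without Fip200 KO replicate 1. Adamts9, also a versican-cleaving enzyme, stood above control in all Fip200 KO and all Atg5 KO libraries, at 8.79 to 20.1 and 9.07 to 13.2 RPKM against 3.30 to 7.01 RPKM. Its log2 fold changes were 1.11 (SE 0.40, limma adjusted p = 0.250) and 0.93 (SE 0.28, limma adjusted p = 0.0484), neither of which was called. In Atg5 KO it was called higher on leaving out control replicate 1, control replicate 3, Atg5 KO replicate 1 or Atg5 KO replicate 2. Adamts10, Adamts12 and Adamts13, the last of which cleaves von Willebrand factor, had log2 fold changes from -0.25 to 0.64. Those of Adamts10 changed sign under other settings in each KO. All Atg5 KO libraries of Adamts12 stood above control. There it passed the adjusted p but not the fold threshold (0.64, SE 0.24, limma adjusted p = 0.0876). The procollagen-processing genes Adamts2, Adamts3 and Adamts14 were too low to test, and Adamts2 and Adamts14 had their highest level in control replicate 2, at 2.38 and 0.685 RPKM.

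Adamtsl5, 1 of 2 ADAMTSL genes tested, fell in Atg5 KO. It was at 6.86, 10.3 and 6.36 RPKM in control, 8.55, 6.97 and 5.01 RPKM in Fip200 KO, 1.36, 1.05 and 2.39 RPKM in Atg5 KO, and 3.79, 4.64 and 5.79 RPKM in Atg7 KO. Atg5 KO lay below every other library, Atg7 KO below control only. The log2 fold change was -2.01 (SE 0.28, limma adjusted p = 0.00614) in Atg5 KO, -0.66 (SE 0.25, limma adjusted p = 0.111) in Atg7 KO and -0.18 (SE 0.29, limma adjusted p = 0.777) in Fip200 KO. Adamtsl4 was at 8.28 RPKM in control replicate 2 and at 0.992 to 2.84 RPKM in the other 11 libraries.

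Of the 4 inhibitors, Timp1, Timp2 and Timp3 were tested, and their log2 fold changes were below 0 in each KO. Timp3, which stays bound to the matrix and inhibits ADAM17 and the aggrecanases as well as MMPs, was at 256, 225 and 168 RPKM in control, 82.9, 227 and 149 RPKM in Fip200 KO, 107, 90.6 and 121 RPKM in Atg5 KO, and 94.7, 62.7 and 124 RPKM in Atg7 KO. Atg5 KO and Atg7 KO were wholly below control. Its log2 fold change was -1.01 (SE 0.19, limma adjusted p = 0.0114) in Atg5 KO and -1.24 (SE 0.28, limma adjusted p = 0.0319) in Atg7 KO. In Atg5 KO it was -0.88, -0.97 and -0.90 without control replicate 1, control replicate 2 and Atg5 KO replicate 2, short of the fold threshold. In Atg7 KO the adjusted p was 0.103 without control replicate 2, and the log2 fold change was -0.98 without Atg7 KO replicate 2. In Fip200 KO the log2 fold change was -0.59 (SE 0.38, limma adjusted p = 0.461).

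Timp2, an inhibitor that also links MT1-MMP to the Mmp2 proenzyme, was at 128, 231 and 164 RPKM in control, 104, 142 and 78.1 RPKM in Fip200 KO, 87.8, 72.5 and 138 RPKM in Atg5 KO, and 107, 35.2 and 125 RPKM in Atg7 KO. Only Atg7 KO lay wholly below control, and it was not called (log2 fold change -1.11, SE 0.48, limma adjusted p = 0.152). In Atg5 KO it passed the adjusted p but not the fold threshold (-0.82, SE 0.29, limma adjusted p = 0.0748), and was called there without control replicate 1 (-1.02) or Atg5 KO replicate 3 (-1.08). Timp1, an inhibitor of most secreted MMPs, was at 48.3, 81.5 and 50.8 RPKM in control, 38.2, 39.1 and 39.9 RPKM in Fip200 KO, 37.2, 34.3 and 35.4 RPKM in Atg5 KO, and 39.4, 46.8 and 57.9 RPKM in Atg7 KO. Fip200 KO and Atg5 KO were wholly below control, with log2 fold changes of -0.58 (SE 0.24, limma adjusted p = 0.296) and -0.71 (SE 0.20, limma adjusted p = 0.0405). Timp1, Timp3 and Timp4 lie within the synapsin genes Syn1, Syn3 and Syn2 on the opposite strand. The library kit keeps the strand, and whether the counting used it is not given in the sources used here.

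Summed levels of the TIMP, ADAM, ADAMTS, ADAMTSL and other MMP families were below every control library in every Atg5 KO and Atg7 KO library, and those of the ADAMTS family also in every Fip200 KO library. The summed TIMP level was 383 to 538 RPKM in control, 226 to 408 RPKM in Fip200 KO, 197 to 295 RPKM in Atg5 KO and 145 to 306 RPKM in Atg7 KO. For the ADAMTS genes it was 259 to 387 RPKM in control against 87.5 to 255 RPKM, 118 to 201 RPKM and 95.1 to 123 RPKM. Membrane-type MMPs, which are nearly all Mmp14, summed to 40.6 to 54.3 RPKM in control, 29.6 to 65.0 RPKM in Fip200 KO, 74.5 to 90.7 RPKM in Atg5 KO and 23.7 to 39.1 RPKM in Atg7 KO. Secreted MMPs overlapped control in Atg5 KO only, at 54.0 to 67.7 RPKM against 56.8 to 121 RPKM. A sum follows the most abundant members of its family, which are Adam15, Adam9 and Adam10 for the ADAMs. Of the ADAMs, 1 of 7 tested was called lower in Atg5 KO and 0 of 6 in Atg7 KO. Of single tested genes, 22% in Atg5 KO and 20.4% in Atg7 KO lay wholly below control. These sums are a description with no test.

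Whether the KO cells differ from each other was tested in 1 fit of all 12 libraries, over 12233 genes of which 32 are members. Limma called 0 members and 0% of all genes in each of the 3 contrasts. At an unadjusted p under 0.05 stood 5 members for Atg5 KO against Fip200 KO, 1 for Atg7 KO against Fip200 KO and 5 for Atg7 KO against Atg5 KO, against 7.58%, 7.49% and 4.59% of all genes. The smallest adjusted p among members was 0.356, for Adamtsl5 in Atg5 KO against Fip200 KO (log2 difference -1.83, SE 0.29). A gene called in Atg5 KO or Atg7 KO and not in Fip200 KO is therefore not shown to differ between them. Without Fip200 KO replicate 3, whose Rb1cc1 was the lowest of the 12 at 2.06 RPKM, 2 members (Adam8 and Adamtsl5) were called lower in Atg5 KO than in Fip200 KO and 3 (Adamts4, Adamts7 and Mmp19) in Atg7 KO, against 2.46% and 3.3% of all genes called in those fits.

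Other genes of the pathway were taken from 3 lists, whose counts stand beside 6.94% of all tested genes called lower and 4.31% called higher in Atg5 KO, 6.81% and 3.29% in Atg7 KO, and 1.64% and 0.347% in Fip200 KO. Of 24 regulators of metalloproteinases, 2 of 15 tested were lower in Fip200 KO, 2 of 16 in Atg5 KO and 2 of 15 in Atg7 KO, and 1 was higher in Atg5 KO. Tspan17, a tetraspanin that guides ADAM10, fell in all 3 KO cells, with log2 fold changes of -3.81 in Atg5 KO, -3.95 in Atg7 KO and -4.72 in Fip200 KO (limma adjusted p = 0.00408, 0.00723 and 0.00854). In Fip200 KO its mean was 0.146 RPKM and it passed the filter only through the control libraries (mean 16.5 RPKM), so its value there had to be below 0. Plat, tissue plasminogen activator, fell as well, with values of -3.88, -3.22 and -3.09 in the same order (limma adjusted p = 0.00305, 0.0130 and 0.0867). By voom, Plat was not called in Fip200 KO. The gene called higher was Tfpi2, a serine protease inhibitor listed at 0 RPKM in every control library and at a mean of 1.05 RPKM in Atg5 KO, which passed the filter only through the KO libraries.

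Among 22 surface proteins shed by ADAM10 or ADAM17, 1 of 18 tested was lower in Fip200 KO, 2 of 17 in Atg5 KO and 1 of 18 in Atg7 KO. Cx3cl1, a membrane chemokine, fell in all 3, with log2 fold changes of -2.07, -1.89 and -2.29 in Atg5 KO, Atg7 KO and Fip200 KO (limma adjusted p = 0.0249, 0.0679 and 0.0639). Tnfrsf1b, a TNF receptor, fell by 1.12 in Atg5 KO. Cdh5, VE-cadherin, rose by 1.28 in Atg5 KO and Cdh2, N-cadherin, by 1.12 in Atg7 KO. The median log2 fold change of this list was -0.51, -0.47 and -0.23 in the same order, and that of the regulators was -0.06, -0.07 and 0.09.

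Of 23 matrix substrates and partners, 1 of 14 tested was lower and 2 were higher in Atg5 KO, and 1 of 13 was lower and 2 were higher in Atg7 KO. In Fip200 KO, limma called 0 of 13 and voom 0, with 7 at an unadjusted p under 0.05, against 16.1% of all genes. Vcan, versican, the proteoglycan cut by ADAMTS1, ADAMTS4, ADAMTS5 and ADAMTS9, had mean levels of 51.7 RPKM in control, 1.94 RPKM in Atg5 KO and 4.17 RPKM in Atg7 KO. Its log2 fold changes were -4.24 (SE 0.46, limma adjusted p = 0.00384) and -3.71 (SE 0.73, limma adjusted p = 0.0241). In Fip200 KO it was -2.95 (SE 0.86, limma adjusted p = 0.180). Tnc, tenascin C, rose by 2.56 in Atg5 KO and 2.73 in Atg7 KO (limma adjusted p = 0.00719 and 0.0173). Bgn, biglycan, rose by 3.78 in Atg5 KO, and Col1a2, a chain of type I collagen, by 1.64 in Atg7 KO, where its mean was 1.13 RPKM and it passed the filter only through the KO libraries. The median log2 fold change of this list was -0.25 in Atg5 KO, 0.36 in Atg7 KO and -0.62 in Fip200 KO.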

How the data were processed

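RNA-sequencing libraries of control cells and 3 kinds of KO cells, 3 of each, were used. By the methods of the study, adapter-trimmed reads were aligned with TopHat2 and counted on known transcripts. The submitters' processing notes name TopHat2 and edgeR, and versions, genome build and annotation are not given in the sources used here. The authors deposited 1 table per KO with an RPKM value per library, a unit read from the values, and group means, a signal on the scale of reads divided by size factors. Their fold changes, log2 fold changes, p-values and adjusted p-values were not used.

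Whole reads were recovered from the RPKM values for 14851 of 14851 genes (100.0% of values whole within 0.01). Genes with RPKM of at least 0.5 in 3 libraries were tested by limma 3.58.1 with trend (R 4.3.3) on log2 of RPKM plus 0.5, with Benjamini-Hochberg adjustment over all tested genes, 6 libraries per fit. Calls required an adjusted p no higher than 0.1 and a log2 fold change past -1 or 1, as in the methods of the study. A count model was planned only if the tables held counts. The test was checked on simulated data. Alternatives were other pseudocounts, filters and scaling, all 12 libraries in 1 fit, library-name letters or replicate number as terms, limma voom on recovered reads, and each library left out. No pair of libraries within a group was a duplicate. Atg5 KO replicates 1 and 2 were by far the closest such pair. Their reads differed by a chi-square of 8.66 per degree of freedom, against 51.4 to 316 for the other pairs. Whether this closeness narrows the spread behind the Atg5 KO calls was not tested.

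Values per library are given for the TIMPs, the members called in at least 1 KO, the 12 with the highest mean level, and Adam10, Adam17, Mmp2, Mmp9 and Mmp14. Members outside this rule were chosen after their values were seen. The members and gene lists were chosen with earlier results of these data known. All 55 gene IDs matched RefSeq genes of GRCm38.p6, used for names, neighbours and promoters. Reads are not independent molecules, so floors cover counting error only. Python 3.11.15, numpy 2.4.6, pandas 2.3.3 and matplotlib 3.10.9 were used.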

Additional observations from a re-analysis of the deposited data

Results flagged for a closer look

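Mmp14 lay on opposite sides of control in 2 of the KO cells, since every Atg5 KO library was above every control library, and every Atg7 KO library was below every control library. The log2 difference of Atg5 KO minus Atg7 KO was 1.38. The difference itself was tested in the limma fit of all 12 libraries, where Atg7 KO minus Atg5 KO was -1.38 (SE 0.28) with an unadjusted p of 0.000411 and an adjusted p of 0.719, so it did not pass the threshold over 12233 genes.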

How the results depend on the processing

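No called member turned its direction, and genes of the other lists were run only with voom. Of members whose values are given by rule, 13 values that were not called did. In Fip200 KO, leaving out a library gave log2 fold changes of -0.36 to 0.067 for Adam17, -0.35 to 0.017 for Adamtsl5, -0.37 to 0.20 for Mmp14 and -0.60 to 1.04 for Adamts7, and Adam17 was 0.044 with the library-name letters as a term. In Atg5 KO, leaving out a library gave -0.13 to 0.18 for Adamts7 and -0.31 to 0.16 for Mmp2, and Adamts7 was -0.010 with median-of-ratios scaling, -0.16 with the letters and -0.0099 by voom. Of the other members tested, which the report does not call in any KO, Mmp3 turned in Fip200 KO (0.47 with the letters), Adamtsl4 and Mmp15 in Atg5 KO, Adamts12 in Atg7 KO, Adamts13 in Fip200 KO and Atg7 KO, and Adamts10 in each KO under at least 1 setting. The count of members called in Fip200 KO was 2 in a fit of all 12 libraries (Adamts1 and Mmp11, against 4.97% of all genes) and 0 to 1 on leaving out a library, with the 1 (Adam8, higher) without Fip200 KO replicate 3 (5.13%). In Atg5 KO it was 7 in the fit of all 12 libraries (without Adamts5 and Mmp13, 8.59%), 4 with the letters (5.42%) and 7 to 10 on leaving out a library (8.49% to 13.0%). In Atg7 KO it was 7 in the fit of all 12 libraries (9.07%), 0 with the letters (0.311%) and 5 to 8 on leaving out a library (4.99% to 13.0%). Between KO cells, leaving out a library gave 0 to 2 members for Atg5 KO against Fip200 KO and 0 to 3 for Atg7 KO against Fip200 KO, the 2 and the 3 without Fip200 KO replicate 3, and 0 for Atg7 KO against Atg5 KO. For these counts the cause was not tested. Other pseudocounts, filters, scaling and voom gave 8 to 10 in Atg5 KO (8.97% to 13.7%), 7 in Atg7 KO (7.68% to 12.2%) and 0 in Fip200 KO (0.987% to 2.03%). Same-numbered libraries did not deviate together (correlation from -0.22 to 0.08), so replicate numbers do not pair the libraries. With the replicate block, 7 members were called in Atg5 KO (11.2%), 6 in Atg7 KO (9.09%) and 0 in Fip200 KO (0.788%), with 0 in each contrast between KO cells. Depth limits members under 0.5 RPKM, and 3 libraries per group cannot reach an exact permutation p under 0.1.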

Other observations

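The balance of Mmp14 to its inhibitors was looked at after the values were seen, as ratios of RPKM within a library and with no test. The ratio of Mmp14 to Timp3 was 0.196, 0.239 and 0.239 in control, 0.751, 0.991 and 0.611 in Atg5 KO, 0.409, 0.360 and 0.275 in Atg7 KO, and 0.348, 0.282 and 0.315 in Fip200 KO. Every KO library was above every control library. The ratio of Mmp14 to Timp2 was 0.233 to 0.393 in control, 0.539 to 1.24 in Atg5 KO and 0.272 to 0.642 in Atg7 KO, so that Atg5 KO alone lay wholly above control. Fip200 KO, at 0.277 to 0.603, overlapped it. These are ratios of RNA, and protein was not measured here.

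The spread among the control libraries differed from member to member. Of 30 members tested in at least 1 KO, 10 had their highest control value in each of the 3 control replicates, against 34.2%, 39.7% and 26.1% of all genes in control replicates 1, 2 and 3. Adamtsl4, Mmp11, Mmp2, Timp1 and Timp2 peaked in control replicate 2, where its value for Adamtsl4 was 4.19 times the middle control value. Mmp3, Mmp13, Adamts1, Adamts4 and Adamts5 peaked in control replicate 3, and Mmp3 there was 2.48 times the middle control value.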
